A study of Sus scrofa with 12 samples.

Results

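The regions described here are sites inside protein-coding genes at which every C/EBP-β chromatin library of pig endometrium had a peak summit. Peak summits of the 6 libraries on chromosomes 1 to 18 and X were joined into 1 region when consecutive summits lay within 200 bp. A region was kept when all 6 libraries had a summit in it, when its midpoint lay inside a protein-coding gene of Sscrofa11.1, and when that midpoint was more than 2 kb from every protein-coding gene end. This gave 848 regions of 98994 in all, and of 2701 shared by the 6 libraries. They were therefore chosen by the presence of a summit on both days, and that presence is a description with no test. The other shared regions were 1051 within 2 kb of a gene end and 802 in intergenic sequence.

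Endometrium, the lining of the uterus, was taken from pregnant pigs on day 15 and on day 12 of pregnancy, with 3 libraries made with the antibody ab32358 against C/EBP-β on each day. Input libraries, 6 in number, are not used here. No strain is named in the labels, which also do not say whether replicates came from separate animals, so p-values measure only the spread between these libraries, which may be technical. The tissue is a mixture of cell types, and peak positions cannot show which of them carried a site.

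C/EBP-β belongs to the basic leucine zipper (bZIP) family of transcription factors and binds DNA as a dimer with itself or with related bZIP proteins. In mouse and human endometrium it is known as a mediator of the stromal response to progesterone and cyclic AMP. Many transcription factors bind enhancers, regulatory elements that act over a distance and often lie in introns. A site inside a gene may act on that gene, on a neighbour or on none, so the host genes below give a location and not a target. The gene table gives start and end without strand or exons, so exonic and intronic sites were not separated.

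Lists differed in length, with 70105, 16519 and 11954 summits in day 15 replicates 1 to 3 and 6556, 33274 and 57694 in day 12 replicates 1 to 3. Because the lists give summits and no reads, the depth behind them is unknown. The peak names form 2 processing sets. Set A, with a directory path, holds day 15 replicates 2 and 3 and day 12 replicate 1, and set B holds day 15 replicate 1 and day 12 replicates 2 and 3. Every list of set A was shorter than every list of set B, so between the sets, list length and processing cannot be told apart. The same code appears in the names of both day 15 replicate 2 and day 15 replicate 3, so that only the labels say that they are separate samples, and the names of day 15 replicate 3 and, outside its path, day 12 replicate 1 do not name the protein. Each summit has the authors' own score, a −log10 value of its p or q, which serves below only to order summits within a list.

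Each of the 848 sites held exactly 1 summit of every library, so the number per site averaged 1 in all 6 libraries and gave no contrast between days. The sites were narrow. The distance between the outermost of the 6 summits, counted inclusively, had a median of 56 bp and ran between 6 and 480 bp, and 47 sites (5.54%) spanned at most 20 bp. This was not particular to them, since shared intergenic regions had a median of 60 bp and 7.73% spanned at most 20 bp. At gene ends these values were 117 bp and 3.90%. The shortest list limited the number most: 497 regions inside genes lacked a summit in day 12 replicate 1 alone, 380 in day 15 replicate 3 alone and 120 in day 15 replicate 2 alone. For the remaining 3 libraries these numbers were 33 or less. The 848 sites made up 12.9% of the list of day 12 replicate 1 and 1.21% of that of day 15 replicate 1, the longest.

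Regions inside genes were the most frequent class among those of few libraries and became less frequent as more libraries shared a region. They were 45.7% of regions of 1 library, 45.6% of regions of 3, 37.1% of regions of 4 and 31.4% of regions of all 6. Regions next to gene ends ran the other way, with 18.1% at 1 library and 38.9% at 6. Within genes, position changed little along the same scale. The median distance to the nearest gene end was 24.5 kb for the shared sites and 27.9 kb for sites of 1 library, and the mean distance to the nearer end of the host was 26.2% and 25.9% of its length.

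**Figure D1:**
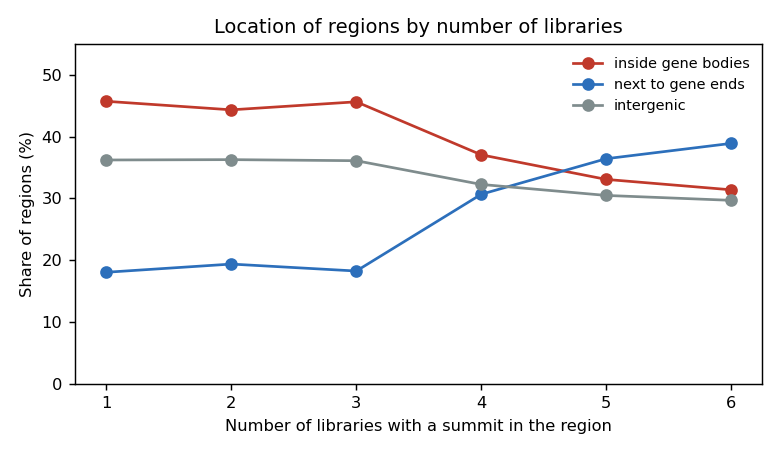
The share of regions in each location class (y axis, %) is plotted against the number of libraries with a summit in the region (x axis). The share inside gene bodies is 45.7% at 1 library and 31.4% at 6, and the lines cross between 4 and 5 libraries.

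Of the 848 sites, 111 lay between 2 and 5 kb from the nearest gene end, 250 between 5 and 20 kb, 230 between 20 and 50 kb, 144 between 50 and 100 kb and 113 farther away. The threshold of 2 kb cut through a continuous range. Just inside it were sites in SLC25A30 (a mitochondrial carrier gene) at 2028 bp, METTL9 (a histidine methyltransferase gene) at 2.03 kb and PLLP (plasmolipin) at 2.06 kb. Just outside it were shared regions in COQ5 (coenzyme Q synthesis) and SOD2 (mitochondrial superoxide dismutase, 1988 bp) and in TICRR (a replication initiation gene). The sites mostly stood alone, since the nearest other shared region of any class was a median of 175 kb away and lay within 10 kb for 44 sites (5.19%).

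To compare single sites, the 2701 shared regions were ranked by score within each library, rank 1 being the highest, so that every library ranks the same regions. The mean rank over the 6 libraries had a median of 1304 for the 848 sites and 1413 for all shared regions. The sites that follow are the 12 with the highest mean score percentile. Their scores helped to place them in all 6 lists, so these ranks are a description.

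The site in BZW2, which encodes a regulator of translation initiation, was the most even of the 12. It lies at chr9:85908790-85908807, 21.0 kb from an end of the gene, and ranked 13, 7 and 12 in the day 15 libraries and 9, 8 and 9 in the day 12 libraries. Authors' scores there were 367, 171 and 116 on day 15 and 117, 129 and 170 on day 12. PKIG, the gene of an inhibitor of protein kinase A, had its site at chr17:47038208-47038224 with ranks of 4, 9 and 3 on day 15 and 2, 6 and 96 on day 12. Day 12 replicate 3 was the lowest of the 6 there.

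NFE2L2 encodes NRF2, the bZIP factor of the oxidative stress response, and its site (chr15:83007944-83007975, 39.2 kb from an end) ranked 33, 26 and 25 on day 15 and 19, 18 and 13 on day 12. All day 15 ranks were thus below all day 12 ranks, by a small margin. EPAS1 encodes HIF-2α, a hypoxia-inducible factor subunit, and its site (chr3:94226941-94226963) ranked 7, 18 and 41 on day 15 and 49, 32 and 31 on day 12, with overlap between the days. The site in MKNK2, a kinase gene that links MAP kinases to the cap-binding protein eIF4E, ranked 54, 28 and 21 on day 15 and 30, 61 and 42 on day 12. FOSL2 encodes the AP-1 subunit FRA2. Its site at chr3:110839983-110840017, 2.9 kb from an end, ranked 55, 45 and 44 on day 15 and 123, 70 and 51 on day 12.

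The remaining top sites varied more between libraries. ETV1, an ETS factor gene, ranked 5, 21 and 184 on day 15 and 27, 22 and 24 on day 12, and PKD2, the gene of the polycystin-2 channel, 43, 71 and 224 on day 15 and 37, 24 and 47 on day 12. Day 15 replicate 3 was the low library at both. UCHL5, a proteasome-associated deubiquitinase gene, ranked 328, 41 and 26 on day 15 and 12, 21 and 172 on day 12, and was lowest in the 2 longest lists. RAMP1, which encodes a subunit of the receptor for calcitonin gene-related peptide, ranked 82, 76 and 45 on day 15 and 25, 106 and 193 on day 12. C3H16orf96 had ranks between 44 and 169.

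ELMSAN1, the gene of a histone deacetylase complex protein, held 2 sites, both high in every library. The first, at chr7:97096300-97096321, is in the top 12 with ranks of 23, 35 and 43 on day 15 and 107, 20 and 66 on day 12. The second, at chr7:97123113-97123137 and 2.11 kb from an end, ranked 48, 104 and 122 on day 15 and 112, 52 and 34 on day 12.

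At the other end of the order, the 4 sites with the lowest mean percentile lay in MSI2 (an RNA-binding protein gene), LOC106508546, METTL9 and MTRF1L (a mitochondrial translation release factor gene). The site in MTRF1L ranked 2652, 2304 and 2631 on day 15 and 2421, 2672 and 2664 on day 12. METTL9 had the widest site of all, 480 bp, with ranks between 2103 and 2642.

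Several genes held more than 1 site. The 848 sites lay in 756 host genes, 9 sites being inside 2 overlapping genes. Of the hosts, 669 held 1 site, 77 held 2, 7 held 3, 2 held 4 and 1 held 5. RAD51B, a gene of homologous recombination, spans 709 kb of chromosome 7 (91592413 to 92301383) and held 5 sites. The strongest of these, at chr7:91698692-91698723, ranked 256, 156 and 221 on day 15 and 342, 44 and 181 on day 12. The other 4 lay 255, 353, 507 and 614 kb from the lower-coordinate end, and their mean ranks were between 1263 and 1542.

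ITPR1, the gene of an inositol trisphosphate receptor that releases calcium from the endoplasmic reticulum, held 4 sites within 331 kb, and none of them ranked above 396 in any library. MAML2, a coactivator gene of Notch signalling, held 4 sites within 380 kb. Of these, chr9:28128672-28128689 ranked 202, 320 and 693 on day 15 and 160, 360 and 445 on day 12, and chr9:28271848-28271892 ranked 415, 390 and 605 on day 15 and 477, 467 and 521 on day 12. The weakest of the MAML2 sites had ranks between 510 and 2598. Sites of 1 gene were thus unequal in score, with 1 or 2 high sites beside weaker ones in RAD51B and MAML2 and none high in ITPR1.

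The 7 genes with 3 sites were ABCB10, BABAM2, IRAK3, LOC106508546, MITF, RGL1 and SMAD3. In RGL1, an exchange factor gene of Ras-like GTPases, the site at chr9:124952551-124952571 ranked 124, 596 and 348 on day 15 and 46, 60 and 219 on day 12, while the other sites had mean ranks of 1726 and 2060. In BABAM2, the gene of a BRCA1 complex subunit, all 3 sites were fairly high, with mean ranks of 414, 662.5 and 874. MITF encodes the melanocyte-inducing transcription factor, and its strongest site ranked 757, 837 and 317 on day 15 and 136, 234 and 342 on day 12, with overlap between the days.

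**Figure D2:**
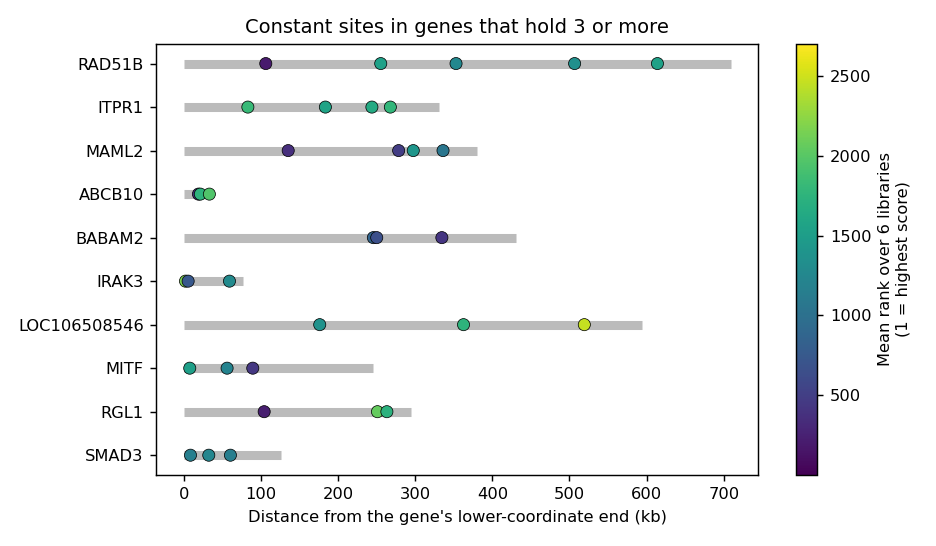
Each grey bar is a gene that held 3 or more sites, drawn to its length, and each point a site at its distance from the lower-coordinate end of the gene (x axis, kb), coloured by mean rank over 6 libraries. RAD51B has 5 points and ITPR1 and MAML2 have 4, and the darkest, highest-scoring point stands beside weaker sites in RAD51B and RGL1.

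Host genes were long. Their median length was 122 kb, against 28.0 kb for the 16438 protein-coding genes longer than 4 kb, which are the genes able to hold such a site. Among these genes 4.60% were hosts. The share was 0.919% for genes of 4 to 20 kb, 2.71% for 20 to 50 kb, 5.76% for 50 to 100 kb, 10.7% for 100 to 200 kb and 20.1% above 200 kb. Per length the order was the opposite, with 1.45 sites per Mb of gene body at 4 to 20 kb and 0.605 above 200 kb, where gene body is the gene without 2 kb at either end. Over all genes the value was 0.799 sites per Mb. Long hosts were not particular to shared sites. Counted per region, the median host length was 130 kb for them and 145 kb for gene-body regions of 1 library. Chromosomes ranged between 0.325 sites per Mb on X and 1.39 on chromosome 12.

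Shared regions at the hosts' own ends were about as frequent as in all genes. Of the 756 hosts, 52 (6.88%) had a region shared by all 6 libraries within 2 kb of an own end, against 7.23% of all genes over 4 kb. Among hosts of 4 to 20 kb the share was 23.3%, against 7.64% of all genes of that length, and above 200 kb it was 3.60% against 4.34%. An example of a short host with both, singled out after its values were seen, is TRIB1, whose product is known in mouse and human cells for promoting the degradation of C/EBP proteins. TRIB1 spans 8.38 kb on chromosome 4 and held 2 sites. The first, chr4:14293389-14293424, ranked 227, 755 and 2148 on day 15 and 150, 23 and 73 on day 12. All its day 15 ranks were thus below all its day 12 ranks, and day 15 replicate 3 was by far the lowest.

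Host genes were counted in 17 lists of genes grouped by function, of which 613 entries were protein-coding genes over 4 kb. Their shares of hosts are given beside the 4.60% of all genes and their sites per Mb beside 0.799, with no test, since members and lists were chosen with earlier results known. Ranks are printed for a few hosts of each list, most of them chosen after their values were seen. List genes were mostly longer than the median gene, with list medians between 24.5 and 146 kb outside the neuronal control, so the value per Mb is the less length-bound of the pair.

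Among receptors and the proteins that carry their signal, the TGF-β and BMP list had 8 hosts of 33 genes (24.2%, 2.97 sites per Mb). SMAD3, which carries the TGF-β signal to the nucleus, held 3 sites. They lie at chr1:165007046-165007192, chr1:165030810-165030871 and chr1:165058870-165058929, and their mean ranks were 1159, 1240 and 1150. The highest site of the list was in SMAD6, an inhibitor of BMP signalling, which ranked 109, 111 and 427 on day 15 and 115, 28 and 78 on day 12. SKI, a repressor of SMAD activity, had a site with ranks of 147, 588 and 1274 on day 15 and 624, 275 and 199 on day 12. BMPR1B, TGFBR2 and TGFBR3 (receptors), SMAD5 and LTBP1 (a binding protein of latent TGF-β) completed the hosts.

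Growth factor receptors and adaptors had 8 hosts of 37 genes (21.6%, 2.04 sites per Mb). INSR, the insulin receptor gene, held 2 sites with mean ranks of 1908 and 1914.5. FGFR2, EPHB4, IGF2R, NRP2, PDGFRA and PDGFRB are further receptor genes with 1 site each, and ERRFI1 encodes a feedback inhibitor of the EGF receptor. The PDGFRB site (chr2:151164513-151164568) ranked 790, 694 and 1330 on day 15 and 792, 1067 and 767 on day 12, an even order that overlapped between the days. In the MAP kinase and PI3 kinase list 4 of 40 genes were hosts (10.0%, 1.31 sites per Mb): MAP3K4 and MAP3K20 with 2 sites each, MAP3K8 and the steroid-inducible kinase gene SGK1.

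Cytokine receptors, JAK, STAT and SOCS genes had 3 hosts of 35 (8.57%, 1.23 sites per Mb). The site in JAK1, the kinase shared by many cytokine receptors, lies at chr6:147394620-147394651 and ranked 566, 606 and 768 on day 15 and 360, 932 and 763 on day 12. The other hosts were PTPN2, a phosphatase that acts on JAK and STAT proteins, and SOCS5. None of the 7 STAT genes and of the interferon receptor genes in the list was a host. Beside 4.60% of all genes over 4 kb, this absence among few genes is no result. NF-κB and innate immune signalling had 3 hosts of 38 (7.89%), and its 4.22 sites per Mb, the highest of the 17 lists, rest on 5 sites. Of these, 3 lie in IRAK3, the gene of an inhibitor of Toll-like receptor signalling, and the strongest (chr5:30530331-30530366) ranked 75, 1179 and 2309 on day 15 and 626, 133 and 87 on day 12. TNFAIP3, which encodes the NF-κB inhibitor A20, and TNFAIP8 held 1 each.

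Among transcription factors, the bZIP list had 6 hosts of 31 genes (19.4%, 2.46 sites per Mb). Besides NFE2L2 and FOSL2 these were CREM, FOSB, JUNB and NFIL3. The FOSB and JUNB sites lay 2.29 and 2.25 kb from a gene end, little beyond the threshold of 2 kb. Both genes also had a shared region at a gene end. The NFIL3 site (chr14:2598487-2598546, 5.26 kb from an end) ranked 63, 125 and 1046 on day 15 and 197, 47 and 37 on day 12. FOSB encodes an AP-1 subunit, and its site had ranks of 2624, 835 and 204 on day 15 and 2210, 1926 and 2372 on day 12, high in the 2 day 15 libraries of set A only. None of the 5 C/EBP genes in the list was a host, and all of them but CEBPG are shorter than 4 kb.

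Nuclear receptors and their coregulators had 8 hosts of 40 genes (1.65 sites per Mb). The thyroid hormone receptor gene THRB held 2 sites, with mean ranks of 1401.5 and 1795. The retinoic acid receptor gene RARB had the highest site of the list, with ranks of 463, 1361 and 942 on day 15 and 281, 606 and 630 on day 12. VDR, ESRRG, NCOA2, PPARGC1B and FKBP5, a chaperone gene induced by progesterone and glucocorticoids in human cells, held 1 each. PGR and ESR1, the progesterone and oestrogen receptor genes, were not hosts, like most genes, so their absence is no result.

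Chromatin regulators had 6 hosts of 48 (12.5%, 0.914 sites per Mb), close to all genes per length. The site in ARID1B, which encodes a subunit of the SWI/SNF remodelling complex, ranked 222, 47 and 104 on day 15 and 190, 194 and 196 on day 12. CREBBP, the gene of an acetyltransferase coactivator, ranked 77, 274 and 1475 on day 15 and 287, 226 and 244 on day 12. HDAC9, KMT2C and KMT2E were also hosts. A shared region at a gene end was found for 14 of the 48 genes, against 7.23% of all genes over 4 kb.

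Integrins and extracellular matrix genes had 9 hosts of 49 (18.4%, 1.93 sites per Mb). ITGB8, an integrin β chain that activates latent TGF-β, had the most even ranks of these, 300, 427 and 307 on day 15 and 313, 288 and 292 on day 12 (chr9:89444040-89444067). LAMA3, a laminin chain of epithelial basement membranes, ranked 330, 432 and 587 on day 15 and 246, 219 and 97 on day 12. All its day 15 ranks were below its day 12 ranks. The same held for the stronger of 2 sites in ITGA9, at 924, 633 and 363 on day 15 and 39, 118 and 64 on day 12. LAMA2, LAMA4, LAMB1, FBN2 (fibrillin), ADAMTS9 (a matrix protease) and ITGA1 held 1 site each. At a gene end, 1 gene of the 49 had a shared region, against 7.23% of all genes over 4 kb. That count is too small to be a result about the list.

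Junction and polarity genes had 5 hosts of 33 (15.2%, 1.04 sites per Mb), all of them genes of tight junctions or of the polarity complex: PARD3 with 2 sites, CGN, CGNL1, OCLN and TJP1. The site in OCLN (occludin) ranked 512, 1406 and 2678 on day 15 and 1333, 772 and 326 on day 12, with day 15 replicate 3 lowest. Actin cytoskeleton and focal adhesion genes had 8 hosts of 58 (13.8%) but 0.748 sites per Mb, below the value of all genes. DOCK9, the gene of an exchange factor for CDC42, had 2 sites, the stronger of which ranked 116, 163 and 651 on day 15 and 70, 161 and 223 on day 12. MYH10, a non-muscle myosin gene, ranked 220, 250 and 465 on day 15 and 889, 430 and 177 on day 12.

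Transporters and retinoid enzymes had 8 hosts of 38 (21.1%, 2.33 sites per Mb). The site in ATP8B1, a phospholipid flippase gene, was the highest of the list (chr1:162951703-162951767), at 122, 39 and 180 on day 15 and 78, 53 and 174 on day 12. ABCC4 (a transporter of prostaglandins and cyclic nucleotides), ATP2B1 (a calcium pump), ALDH1A2 (retinoic acid synthesis), SLC2A13, SLC22A5, SLC38A1 and SLC44A1 held 1 each. Lipid, eicosanoid and steroid genes had 4 hosts of 46 (8.70%, 1.27 sites per Mb), namely ABCG1, ACSL4, FADS2 and LRP1, with mean ranks between 1377 and 2235. None of the prostaglandin synthesis or receptor genes in the list was a host. With 4.60% of all genes over 4 kb as hosts, that absence is no result about them.

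Among marker lists of other cell types, smooth muscle markers had 1 host of 16, CALD1 (6.25%, 0.464 sites per Mb), and endothelial and leukocyte markers had 0 of 12 and 0 of 13. These lists are small, with 2.16 Mb of gene body in smooth muscle, 1.19 Mb in endothelial and 0.613 Mb in leukocyte markers, so that counts of 1 and 0 are no result about them. Long neuronal genes, a control, had 4 hosts of 46 (8.70%), above the share of all genes, but with a median length of 1080 kb this was 0.0740 sites per Mb. The 4 sites, in CADM2, CNTN5, DLG2 and NRG3, had mean ranks between 1417 and 1887.

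**Figure D3:**
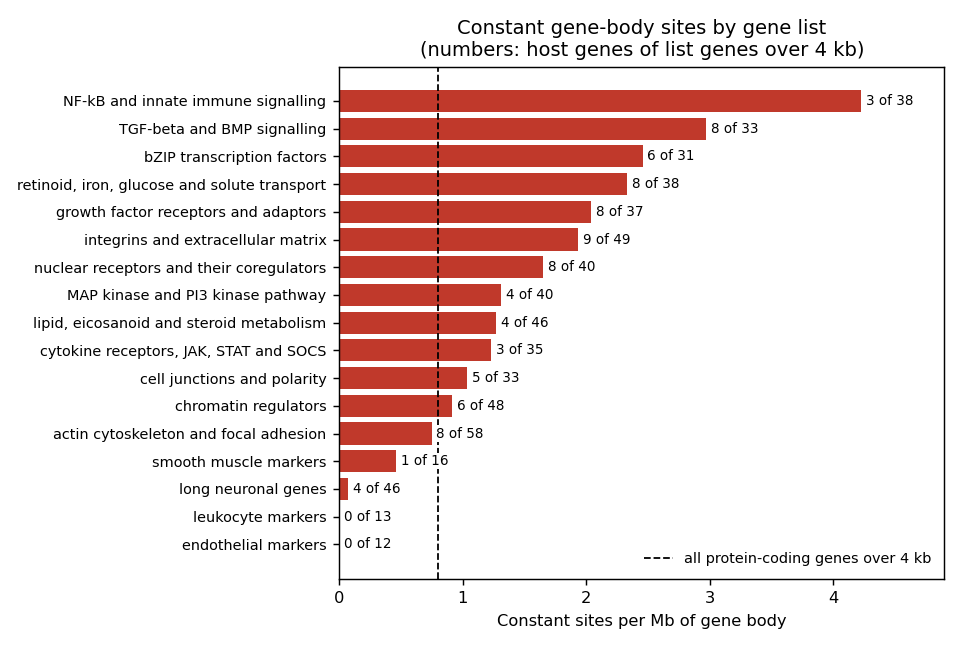
Bars give constant sites per Mb of gene body (x axis) for each of the 17 lists, with the number of hosts of list genes over 4 kb beside them, and the dashed line marks all protein-coding genes over 4 kb. Most lists lie right of the line at 0.799, the neuronal control lies at 0.0740, and the top bar rests on 5 sites.

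Some sites lay beside an end of a non-coding gene. Of the 848, 34 (4.01%) were within 2 kb of an end of such a gene, 25 of them of a long non-coding RNA, against 426 of 22836 (1.87%) gene-body regions of 1 library. The PPARGC1B site (chr2:150826439-150826512) lies 532 bp from MIR378-1, a microRNA gene within PPARGC1B. Another 3 sites, in AURKB, BORCS6 and LOC110256117 on chromosome 12, lay 51.5, 37 and 12 bp from the end of a gene for tryptophan tRNA (anticodon CCA). The AURKB site ranked 855, 338 and 633 on day 15 and 1064, 1185 and 615 on day 12. Of 448 tRNA genes on these chromosomes, 64 (14.3%) had a shared region of any class within 200 bp, and of the 9 genes for tryptophan tRNA 3 did. Many tRNA genes lie in clusters, so that 1 region can count for several.

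The study's comparison is between the days, and for sites present in every library it can be asked only of their score order. Scores were turned into percentiles of all summits of the same list, and the median over sites was taken per library. The 848 sites had median percentiles of 97.1, 82.5 and 73.8 in day 15 replicates 1 to 3 and 75.4, 93.1 and 94.0 in day 12 replicates 1 to 3. Shared regions next to gene ends had 91.6, 89.7 and 83.4 on day 15 and 58.9, 74.1 and 85.8 on day 12. Sites inside genes therefore stood above those at gene ends in every day 12 library and in day 15 replicate 1, and below them in day 15 replicates 2 and 3.

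On day 15 the difference between sites inside genes and those at gene ends was −3.77 ± 8.11 percentile points (SD, n = 3) and on day 12 it was 14.6 ± 5.67 points (SD, n = 3). The days did not overlap with the lists as deposited. The change of −18.3 points between days had a two-sided exact permutation p of 0.1, the smallest that 3 against 3 libraries allow, and 0.15 after Benjamini-Hochberg adjustment over 3 day comparisons. This contrast was set after the values were seen. The comparison with all other shared regions together gave −9.39 points with the same p values. Those regions include the gene ends, so the 2 comparisons overlap. Against shared intergenic regions alone, the difference was −1.82 ± 1.58 points on day 15 and −0.72 ± 0.17 points on day 12 (SD, n = 3). There the days overlapped, and the change was −1.71 points in set A and 0.42 in set B. The larger changes were thus those of comparisons that include gene ends. This contrast with intergenic regions was not among the 3 day comparisons. The remaining one of those 3, summits per site, was 1 in every library and could show no change. Within the processing sets the change against gene ends was −24.9 points in set A and −8.10 in set B, and against all others −13.9 and −3.07 (exact permutation within sets, p = 0.111, the smallest of 9 arrangements). The changes were smaller under stricter cuts of the lists, which also left fewer sites, 369 with equal lists and 291 with scores of at least 10. Whether list length, processing set or the sites kept lay behind this was not tested. With every list cut to its 6556 highest summits, the change against gene ends was −5.06 points and that against all others −2.27 (exact permutation p = 0.3 for both), and with scores of at least 10 they were −6.84 (exact permutation p = 0.2) and −3.16 (exact permutation p = 0.3). The days overlapped under both settings. Day 15 replicates 2 and 3, the libraries with negative differences, share a code in their names, so that n = 3 rests on the labels. Without day 15 replicate 2 the change against gene ends was −16.1 points and without day 15 replicate 3 it was −14.7.

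**Figure D4:**
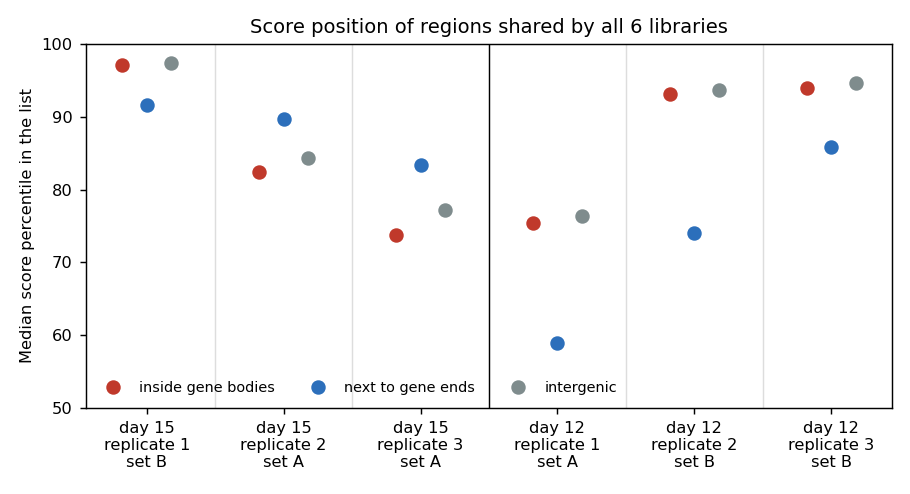
Points give the median score percentile (y axis) of the shared regions of each class in each library, day 15 on the left and day 12 on the right, with the processing set below each library. Red points for gene bodies and grey points for intergenic regions lie close together in all 6 libraries, while blue points for gene ends lie above them in day 15 replicates 2 and 3 and below them in the other 4.

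Over the 6 libraries together, sites inside genes differed from those at gene ends by 5.39 ± 11.8 points (SD, n = 6), higher in 4 of 6 libraries (exact sign-flip permutation p = 0.344, adjusted 0.688 over 6 class comparisons). Against shared intergenic regions they were lower in 6 of 6 libraries, with differences between −3.36 and −0.21 points. That mean of −1.27 ± 1.17 points (SD, n = 6) had an exact sign-flip p of 0.03125, the smallest that 6 libraries allow, and did not pass after adjustment (0.0938). With equal lists the difference turned to 0.43 points. Inside genes, 92 of 848 sites (10.8%) were in the highest 10% of all 6 lists, against 90 of 1051 (8.56%) at gene ends and 89 of 802 (11.1%) between genes.

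Recurrence was also measured in a library that had no part in choosing the regions. For each library in turn, regions were built from the other 5 and kept when all 5 had a summit. Inside genes, a summit of the left-out library lay within 200 bp of 99.2%, 87.6% and 69.0% of them for day 15 replicates 1 to 3 and of 62.9%, 96.3% and 98.9% for day 12 replicates 1 to 3. Inside genes the share had the order of list length, lowest for the 2 shortest lists, and all lists of set A were below those of set B. At gene ends it was 96.3%, 95.9% and 85.6% on day 15 and 62.9%, 81.1% and 96.1% on day 12. There the order was not that of list length, with day 12 replicate 2 below the shorter lists of day 15 replicates 2 and 3. The difference, genes minus gene ends, averaged −0.68 ± 10.9 points (SD, n = 6, exact sign-flip permutation p = 0.938). Against intergenic regions it was −0.37 ± 1.14 points (SD, n = 6, exact sign-flip permutation p = 0.5), with single libraries between −2.18 and 0.66 points.

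Summit positions were also compared between libraries, a measure added after the data were seen that uses the positions by which summits were joined. The distance of a library's summit to the median of the other 5 had medians of 11, 20 and 18 bp on day 15 and 14, 12 and 12 bp on day 12 inside genes. At gene ends it was 21, 37 and 39 bp on day 15 and 29, 25 and 23 bp on day 12. The difference was −14.5 ± 4.09 bp (SD, n = 6), smaller inside genes in 6 of 6 libraries, with an exact sign-flip permutation p of 0.03125 that did not pass after adjustment (0.0938). Because these positions also decided which summits were joined, this p is no support for a difference between classes. Region widths differed likewise, with medians of 56 bp inside genes and 117 bp at gene ends. The difference in distance depended on the lists and the joining, at −2 bp with equal lists, −4 bp with scores of at least 10, −8.58 bp when joining within 100 bp and −19.5 bp when joining within 500 bp. Against intergenic regions it was 0.33 ± 0.82 bp (SD, n = 6, exact sign-flip permutation p = 0.625).

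Single sites whose ranks separated the days were few. All 3 day 15 ranks were above all 3 day 12 ranks at 38 of the 848 sites (4.48%), against 6.26% of all 2701 shared regions. All 3 were below at 70 sites (8.25%), against 6.22% of all. Members of the shared set trade places by construction, since each rank gained by one region is lost by others. At gene ends the shares were 7.90% above and 3.62% below, and between genes 5.99% and 7.48%.

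**Figure D5:**
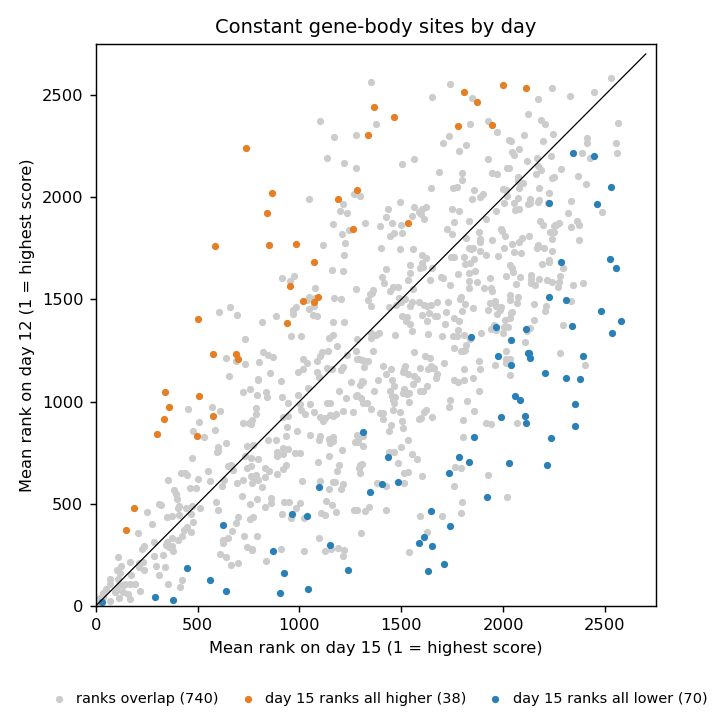
Each point is 1 of the 848 sites, at its mean rank over the 3 day 15 libraries (x axis) and the 3 day 12 libraries (y axis), rank 1 being the highest score. The 38 orange sites have all day 15 ranks higher and the 70 blue sites all day 15 ranks lower. The higher mean rank was on day 15 for 284 sites (33.5%), against 48.4% of all shared regions. This share was close to the 35.9% of shared intergenic regions, and at gene ends it was 69.9%.

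The sites placed higher on day 15 by the largest differences included those in LOC102164422, DMXL2, BMPER (a secreted BMP-binding protein) and ING2 (a chromatin reader). DMXL2 ranked 863, 950 and 782 on day 15 and 2526, 1791 and 1741 on day 12. BMPER (chr18:39517128-39517157) ranked 1063, 789 and 667 on day 15 and 2452, 1877 and 1435 on day 12. At both, the lowest-placed day 15 library stood above the highest-placed day 12 library.

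Those placed lower on day 15 lay in IVNS1ABP (an actin-associated kelch protein), AFG1L (a mitochondrial ATPase), ARID5B (a DNA-binding cofactor of histone demethylation), SH3D19 and VWA8. IVNS1ABP (chr9:126466994-126467043) ranked 1915, 2490 and 2239 on day 15 and 721, 725 and 620 on day 12, and AFG1L ranked 2185, 1559 and 1386 on day 15 and 275, 244 and 94 on day 12. SH3D19 ranked 769, 1963 and 2162 on day 15 and 304, 121 and 80 on day 12. With 3 libraries a day, no single site could pass a test, and 70 and 38 sites are counts of an ordering.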

How the data were processed

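The tools named, per the submitters' processing notes, are MACS2 2.1.2, Bowtie2 2.3.5.1 and SAMtools 1.9, and the build is susScr11 (Sscrofa11.1). How the threshold, the input and duplicates were handled is not given in the sources. The deposited files hold 1 bp summits with a −log10 score (of p or q, which of them is not stated) from the authors' peak caller. The lowest score was 2.02 in day 12 replicate 1 and 1.31 to 1.37 in the other 5 lists. Of 198341 summits, 196102 on chromosomes 1 to 18 and X were used, and coordinates count from 1.

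Gene positions are those of RefSeq for Sscrofa11.1 (19484 protein-coding genes on these chromosomes), without strand, exons or sequence. Distances to a start site, the motif searches and the promoter windows that had been planned were therefore not run. Where 2 genes hold a site, the longer is named. Of 642 list entries, 631 matched by symbol or synonym.

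Members, lists and tests were chosen with earlier results of these data known. Named sites were the 12 highest and 4 lowest by mean percentile, 3 on either side of 2 kb, hosts of 4 or more, up to 4 hosts per list, and 5 sites in each direction between days; a few of these are not reported here. Hosts of lists described beyond this rule, TRIB1, the hosts of 3 and the sites beside non-coding genes were chosen after their values were seen. Exact permutation tests took libraries as units, at a threshold of 0.05 on adjusted p-values. Same-numbered replicates of the 2 days did not deviate together (correlations of −0.36, −0.09 and −0.21 over shared regions). Each of these pairs crosses the processing sets, so the correlations cannot show whether the numbers are pairs. Differently numbered replicates of the 2 days had 0.27, 0.20, 0.04 and 0.30 within a set and 0.03 and −0.18 across sets. Numbers were not taken as pairs in the main tests, and the replicate block takes them so. Alternatives were scores of at least 5 or 10, joining within 100 or 500 bp, gene ends of 1 or 5 kb, ends of genes of every type, equal lists of 6556 summits, means for medians, each library left out, a replicate block and processing sets. A score of at least 2 was added after seeing the data. Joining and location classes were tested on simulated lists. Python 3.11.15, numpy 2.4.6 and pandas 2.3.3 were used.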

Additional observations from a re-analysis of the deposited data

How the results depend on the processing

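The number of sites moved most with the lists. It was 291 with a score of at least 10 and 369 with equal lists, all of which overlapped the 848, and between 854 and 1340 when 1 library was left out, the highest without day 12 replicate 1. Score percentiles between days kept their direction under all 18 alternatives but not the separation of the days. Among the alternatives, the replicate block alters only the p, so its direction was fixed, and the processing sets reweight the same library values. The change against gene ends ran between −23.5 and −5.06 points, and that against all other shared regions between −12.7 and −2.27. The smallest sizes came with equal lists (exact permutation p = 0.3 for both), and leaving out any day 12 library gave an exact permutation p of 0.2. With days permuted within equal replicate numbers (the replicate block), these changes were −18.3 and −9.39 points and the number of summits per site differed by 0 (exact permutation p = 0.25, 0.25 and 1, where 0.25 is the smallest possible). Class differences over all libraries were less stable. Against gene ends, the percentile difference turned to −1.87 points with a score of at least 10 and −0.48 with equal lists, and recurrence to 3.65 points with a score of at least 10 and 0.78 when joining within 100 bp. Leaving out 1 library put that recurrence difference between −2.46 and 0.30 points, positive without day 12 replicate 3. Against intergenic regions, the percentile difference turned to 0.43 points with equal lists. Recurrence there turned to 1.41 points with a score of at least 10, 0.20 with gene ends of 5 kb and 0.37 with equal lists, and summit distance to −0.0833 bp when joining within 100 bp and −0.67 bp with equal lists. The cause of these turns was not tested. Summit distance against gene ends ran between −25.0 and −2 bp, the smallest size with equal lists. With 5 libraries a sign-flip p cannot go below 0.0625. Depth is unknown, so a missing summit does not show a missing site.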
